A study of Oryctolagus cuniculus with 8 samples.

Results

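Genes that move cholesterol out of cells, take up lipoproteins and fatty acids, and coat lipid droplets were followed across the diets in rabbit retina. They were taken from a list of 10 symbols, ABCA1, ABCG1, APOE, LPL, CD36, SCARB1, PLIN2, CYP27A1, NR1H3 and MYLIP, which were looked up by gene name in the expression table. The table held 25666 genes, 19293 of them protein-coding. Rows named for 8 of the 10 symbols were found. No row carried the symbol ABCG1 or APOE, and these 2 genes were not analysed here. Of the protein-coding rows 13297 carry a symbol, so a gene not found by symbol may be among the rest. Tests were run on the 12204 protein-coding genes that reached 1 FPKM in 2 or more libraries. They included 7 of the 8 genes, and ABCA1 lay below that limit.

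RNA had been sequenced from retinas of wild-type male Chinchilla rabbits, 2 retinas for each of 4 diets fed for 6 months from an age of 12 to 16 weeks. The normal diet (ND) was standard chow. The high-fat diet (HFD) was the same chow with 10% lard and 0.5% cholesterol, and the high-sucrose diet (HSD) was the chow with 40% sucrose. The high-fat plus high-sucrose diet (HFSD) joined the lard and cholesterol of the HFD, at the same 10% and 0.5%, to sucrose at 35%, so its sucrose was not at the level of the HSD. Lard and cholesterol were always given together and cannot be told apart. The study asked how these diets act on blood lipids and on the retina, and described deposits of lipid droplets next to the pigment epithelium. The question here was whether genes of lipid handling differed in level between the diets.

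Cells dispose of surplus cholesterol mainly by export. Oxidised cholesterol activates the liver X receptors (LXR), nuclear receptors that switch on the genes of the exporter ABCA1, of lipoprotein lipase and of MYLIP, an enzyme that marks the LDL receptor for breakdown. The pigment epithelium and the retina receive lipid from blood lipoproteins and from shed photoreceptor membranes through receptors such as SCARB1 and CD36, and surplus fatty acids are stored as neutral lipid in droplets that carry the coat protein PLIN2.

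The values are FPKM, which divide a gene's sequenced fragments by gene length and library depth, so levels of different genes are comparable per length. The FPKM steps corresponded to whole fragments, which gave library depths from 15764577 to 22785832. At those depths 1 fragment on a gene of 1 kilobase is worth 0.0439 to 0.0634 FPKM. Photoreceptor markers, 9 of 12 found, summed to 29391 to 40749 FPKM. One library, HSD replicate 2, stood apart. The 11 skeletal muscle markers found of 15 summed to 677 FPKM there and to 19.2 to 25.2 FPKM in the other 7 libraries, with TNNT3 and TNNC2, both troponin subunits of muscle, listed at 0 in all 7. The fat cell hormone ADIPOQ was at 1.47 FPKM in the same library and at most at 0.269 FPKM elsewhere, while PCK1 was at 0 in every library. The 7 adipocyte markers found of 9 summed to 20.4 FPKM there and to 10.8 to 17.5 FPKM elsewhere. The 2 ND retinas, which serve every comparison, also differed. Astrocyte markers, 5 of 5 found, summed to 1128 FPKM in the first and 385 FPKM in the second, with GFAP at 524 and 12.1 FPKM. Blood markers, 5 of 11 found, summed to 82.6 and 8.25 FPKM, and the vessel marker CLDN5 was at 28.0 and 1.03 FPKM. The part of this in the ND values was not tested. The members' values in HSD are given below with and without HSD replicate 2, and so are several values by fat, by sucrose and for the interaction.

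**Figure D1:**
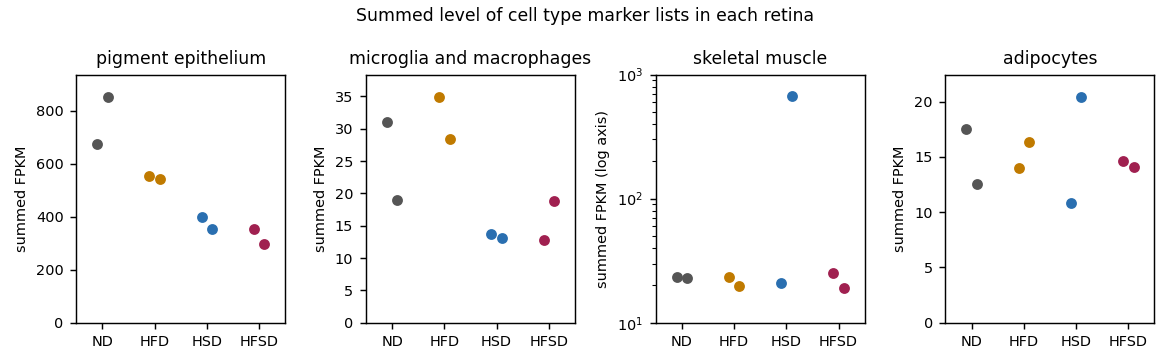
Summed FPKM of 4 marker lists, with 1 point per retina and 2 retinas per diet; the muscle panel has a log axis, the others start at 0. HSD replicate 2 lies at 677 for muscle against 19.2 to 25.2 elsewhere, and the pigment epithelium sums are 542 to 851 in ND and HFD and 298 to 398 in the diets with sucrose.

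The level of pigment epithelium markers also moved with diet. The 11 markers found of 12 summed to 672 and 851 FPKM under ND, 554 and 542 under HFD, 398 and 353 under HSD, and 355 and 298 under HFSD, and none was at 0 in any library. LRAT and RLBP1, 2 of the 11, were lower in all 4 retinas with sucrose than in all 4 without, and the other 9 overlapped. RLBP1 is counted among the Müller cell markers as well. Under HFD 5 of the 11 already lay below both ND retinas and 0 above, where 25.9% of all genes tested separated from ND. RPE65, among these 5, was at 119 and 74.6 FPKM under ND, 34.8 and 10.1 under HFD, and 12.1 to 25.6 with sucrose. The 12 microglia and macrophage markers summed to 18.94 to 34.9 FPKM in the retinas without sucrose and to 12.8 to 18.89 FPKM with it, so the sums barely parted. Of the 12, 6 were lower in all 4 retinas with sucrose than in all 4 without. The share of all genes separated in that way was not counted. Müller cell markers, 10 of 10 found, summed to 3541 to 4791 FPKM without sucrose and to 2644 to 2811 FPKM with it. Of these 10, GLUL, CLU and RLBP1 were separated, and GLUL, at 1489 to 2127 FPKM without sucrose and 722 to 890 FPKM with it, made up the largest part of the gap, while the other 7 overlapped. The cone markers OPN1SW, ARR3 and GNAT2 went the other way, and all 3 were higher in the 4 retinas with sucrose than in the 4 without, OPN1SW at 209 to 290 FPKM against 67.6 to 114 FPKM, while RCVRN was lower in all 4. The RNA came from dissected retinas. Fewer sampled cells of a type, whether by diet or by dissection, and less RNA per cell cannot be told apart. The part of these shifts in any result below was not tested.

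The 8 genes differed widely in level. SCARB1, the receptor that takes up cholesterol esters from HDL, was by far the most abundant, with a mean of 80.8 FPKM over the 8 libraries, above 90.7% of the genes tested. CYP27A1, a mitochondrial enzyme that oxidises cholesterol to 27-hydroxycholesterol, followed at 15.4 FPKM and PLIN2 at 9.99 FPKM. MYLIP at 4.83 and NR1H3, which encodes LXRα, at 4.74 FPKM came next. Then came LPL at 2.62 FPKM, CD36 at 2.52 FPKM and ABCA1 at 0.687 FPKM. The order was not equally firm at every step. CYP27A1 was above PLIN2 in each of the 8 libraries although their ranges overlapped, and NR1H3 was above LPL in all 8. MYLIP exceeded NR1H3 in 5 of 8 libraries and LPL exceeded CD36 in 6 of 8, so neither pair was separated beyond its spread. SCARB1 and ABCA1 did not overlap with their neighbours in the order.

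**Figure D2:**
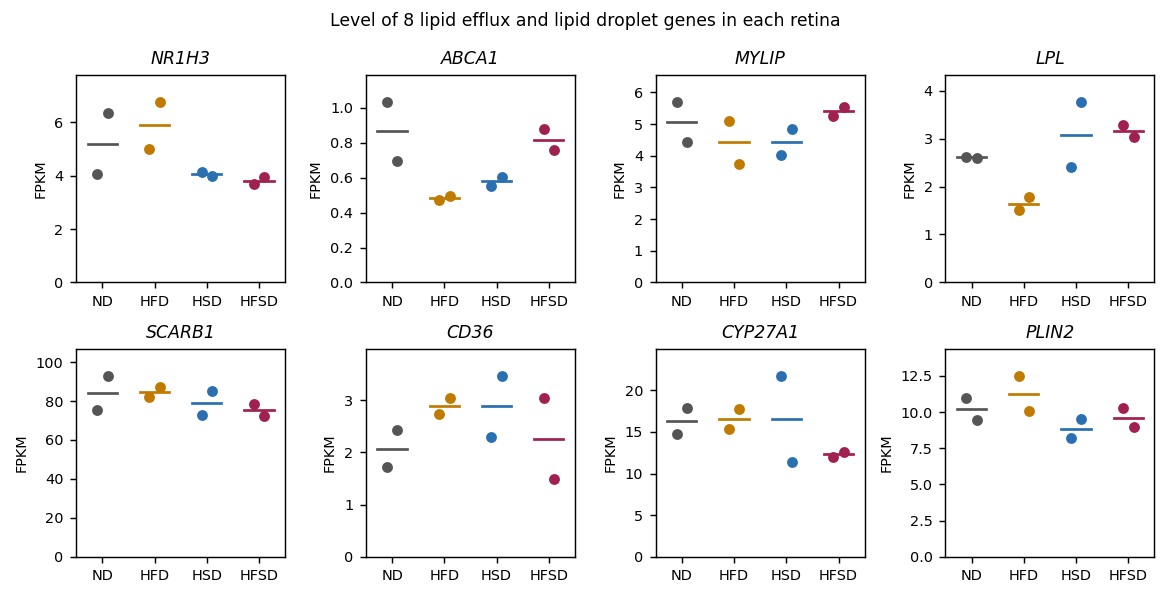
FPKM of the 8 genes on axes that start at 0, with 1 point per retina, 2 retinas per diet and a bar at their mean. ABCA1 lies lower in both HFD and both HSD retinas than in either ND retina, LPL lies lower in HFD, and NR1H3 is at 3.67 to 4.13 in the 4 retinas with sucrose.

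None of the 7 tested genes passed an adjusted p of 0.05 in any diet against ND. In limma, with p-values adjusted by the Benjamini-Hochberg method over the 12204 genes tested, the count was 0 of 7 in HFD, where 0.00819% of all genes tested were called, 0 of 7 in HSD, where 0.0574% were called, and 0 of 7 in HFSD, where 0.0164% were called. At an unadjusted p under 0.05 the count was also 0 of 7 in each diet (under alternative filters, constants or voom, and when 1 library was left out, it was 0 or 1 in each diet for these 7), where 4.31% of all genes passed in HFD, 7.20% in HSD, and 8.07% with the combined diet, HFSD. The study selected genes by the fold of FPKM + 1, with a lower limit of 0.65 and about its reciprocal as the upper one, applied here to group means. None of the 8 genes passed these limits in any diet, which 1.76% of the protein-coding genes passed under HFD, 3.95% under HSD, and 3.43% under HFSD. The 3 comparisons share the same ND retinas. Nothing states whether the 2 retinas of a diet came from different rabbits, so p-values measure the spread between these retinas, which may in part be technical.

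The median log2 fold change of the 7 genes was 0.02 in HFD, with 5 higher and 2 lower. It was −0.08 in HSD, with 2 higher and 5 lower, and −0.08 in HFSD, with 3 higher and 4 lower. Over all genes tested the medians were 0.0063, −0.0018 and −0.0040. Leaving out 1 library at a time turned the direction in at least 1 fit for 14 of the 24 pairs of gene and diet, ABCA1 included, so most of these directions are not fixed. Where such a fit leaves 1 retina in a diet, that retina is assumed to vary like those of the other diets. The 2 retinas of a diet were both outside the range of ND for 2 of 7 genes in HFD (25.9% of all genes tested), for 0 of 7 in HSD (39.0%) and for 3 of 7 in HFSD (42.3%).

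**Figure D3:**
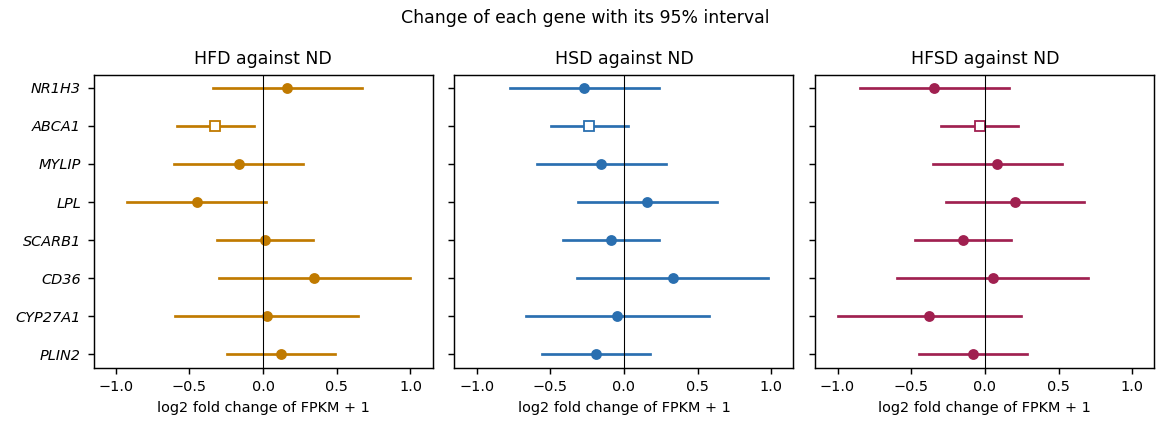
Log2 fold change of FPKM + 1 against ND for each gene (points) with its 95% interval from limma (lines), in 3 panels for HFD, HSD and HFSD; open squares mark ABCA1, fitted without the filter on low values. All intervals include 0 except that of ABCA1 in HFD, which runs from −0.59 to −0.06.

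NR1H3, the nuclear receptor at the head of the pathway, stood at 4.05 and 6.36 FPKM in ND. HFD gave 5.01 and 6.78 FPKM, HSD 4.13 and 3.99, and HFSD 3.67 and 3.94. The 4 retinas with sucrose lay close together, and both HFSD retinas were below both ND retinas. The first ND retina was low as well, and the HSD retinas overlapped with it. These values rest on 84 to 167 fragments a library. For the first ND retina the counting error alone gives an interval (exact Poisson, 95%) of 3.32 to 4.90 FPKM, and for the second 5.39 to 7.45 FPKM, so the 2 ND retinas differed by more than counting error. The log2 fold change against ND was −0.34 in HFSD (95% interval −0.85 to 0.16; adjusted p = 0.715, limma with Benjamini-Hochberg), −0.27 in HSD (−0.77 to 0.24) and 0.17 in HFD (−0.34 to 0.67). The ND retinas decide these sizes. Without ND replicate 1 the 3 values were −0.61, −0.54 and −0.11, and without ND replicate 2 they were −0.07, 0.0035 and 0.44.

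Taken by sucrose, NR1H3 averaged 3.94±0.193 FPKM (s.d., 4 retinas) with sucrose and 5.55±1.25 FPKM (s.d., 4 retinas) without. The highest value with sucrose, 4.13 FPKM, exceeded the lowest without it, 4.05 FPKM, so the groups overlapped by 1 ND retina. The log2 difference was −0.39 (−0.74 to −0.03), with an unadjusted p of 0.037 and an adjusted p of 0.243 in limma with Benjamini-Hochberg adjustment. It was −0.25 without ND replicate 2, with an unadjusted p of 0.107 (limma), and −0.38 without HSD replicate 2. Among all genes tested, 18.3% had an unadjusted p under 0.05 in this comparison and 0.344% were called. NR1H3 and LPL were the 2 of 7 genes at an unadjusted p under 0.05 and 0 of 7 were called. The pigment epithelium, Müller cell and microglia marker sums were lower in the same 4 retinas, and their part in the value of NR1H3 was not tested.

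ABCA1, the membrane pump that loads cholesterol and phospholipid onto apolipoprotein particles, was low in whole retina. Its level was 1.04 and 0.698 FPKM under ND, 0.473 and 0.494 under HFD, 0.555 and 0.604 under HSD, and 0.877 and 0.757 under HFSD. Both HFD and both HSD retinas lay below both ND retinas, while the HFSD retinas lay between the ND retinas and above all 4 of the retinas given fat or sucrose alone. ABCA1 was not among the genes tested because only 1 library reached 1 FPKM, but its transcript is long and 63 to 146 fragments lay behind each value. By counting error alone the first ND retina spans 0.875 to 1.22 FPKM and the second 0.560 to 0.859 FPKM. The first HFD retina spans 0.367 to 0.599 FPKM, which overlaps with the second ND retina.

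In a limma fit of all 16404 protein-coding genes above 0, the log2 fold change of ABCA1 was −0.33 in HFD (−0.59 to −0.06), −0.24 in HSD (−0.50 to 0.03) and −0.03 in HFSD (−0.30 to 0.23). The unadjusted p in HFD was 0.022. The adjusted p (Benjamini-Hochberg) was 1 under HFD, 0.752 under HSD and 0.979 under HFSD, so none was called. The size in HFD rests on the ND retinas and on the added constant, because the gene lies below 1 FPKM. It was −0.19 without ND replicate 1 and −0.46 without ND replicate 2. With 0.1 FPKM in place of 1 FPKM added before the log it was −0.71, with an unadjusted p of 0.064 (limma). With voom on fragments it was −0.83, with an unadjusted p of 0.027 and an adjusted p of 0.999, so the alternatives ran from −0.83 to −0.19. The fold of means with 0.1 FPKM added was 0.604 under HFD, 0.702 under HSD and 0.948 under HFSD.

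LPL, lipoprotein lipase, which frees fatty acids from circulating triglyceride, was the member with the widest range over the libraries, 2.5-fold from lowest to highest. It stood at 2.62 and 2.60 FPKM under ND, 1.51 and 1.78 under HFD, 2.40 and 3.77 under HSD, and 3.29 and 3.04 under HFSD. Both HFD retinas lay below all the other 6 retinas, both HFSD retinas above both ND retinas, and the 2 HSD retinas on either side of ND. Behind these values were 125 to 311 fragments. The highest value was in HSD replicate 2, the library with muscle transcripts, whose part in the value was not tested.

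The log2 fold change of LPL in HFD was −0.45 (−0.92 to 0.02), with an unadjusted p of 0.058 and an adjusted p of 0.998 in limma. With voom on fragments it was −0.69, with an unadjusted p of 0.033 and an adjusted p of 0.999. It was 0.16 in HSD (−0.31 to 0.63) and 0.20 in HFSD (−0.27 to 0.68), with adjusted p values of 0.894 and 0.822 in limma. Without HSD replicate 2 the log2 fold change in HSD was −0.09, and without HSD replicate 1 it was 0.40. With sucrose LPL averaged 3.12±0.571 FPKM (s.d., 4 retinas) and without it 2.13±0.569 FPKM (s.d., 4 retinas). The lowest value with sucrose was 2.40 FPKM and the highest without it 2.62 FPKM, so these groups overlapped too. The log2 difference by sucrose was 0.41 (0.07 to 0.74), with an unadjusted p of 0.023 and an adjusted p of 0.209 (limma). Without HSD replicate 2 it was 0.28, with an unadjusted p of 0.081 and an adjusted p of 0.432 (limma).

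MYLIP, the ligase that directs LDL receptors to lysosomes, passed no test. It stood at 5.71 and 4.43 FPKM under ND, 5.11 and 3.74 under HFD, 4.03 and 4.85 under HSD, and 5.25 and 5.54 under HFSD. Every diet group overlapped with ND, while both HFSD retinas lay above all 4 HFD and HSD retinas. The log2 fold changes against ND were −0.16 in HFD (−0.60 to 0.27), −0.15 in HSD (−0.59 to 0.29) and 0.08 in HFSD (−0.35 to 0.52). Leaving out 1 library gave −0.35 to 0.02 in HFD, −0.31 to −0.00043 in HSD and −0.07 to 0.24 in HFSD. The 3 LXR target genes of the list that could be measured, ABCA1, LPL and MYLIP, had their lowest group mean in HFD, though for MYLIP by no more than 4.43 against 4.44 FPKM in HSD. A longer list of LXR receptors, partners and targets, read below, did not share a direction. Of its 12 tested genes, LPL and MYLIP included, 5 were higher and 7 lower in HFD than in ND, with a median log2 fold change of −0.03.

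The diets form a 2 by 2 design of fat plus cholesterol and of sucrose, in which the interaction measures whether HFSD differs from what the 2 additions give when their log2 changes are summed. In the limma test of the interaction 0 of 7 genes were called and 0 had an unadjusted p under 0.05, beside 0.00819% and 3.74% of all genes tested. ABCA1, fitted without the filter, had the smallest unadjusted p of the 8, 0.013, with a log2 interaction of 0.53 (0.16 to 0.90) and an adjusted p of 1. The log2 interaction was 0.50 for LPL (−0.17 to 1.16), 0.40 for MYLIP (−0.22 to 1.02) and −0.62 for CD36 (−1.54 to 0.29), each with an adjusted p of 0.999 in limma. Leaving out 1 library moved these values to between 0.25 and 0.74 for LPL, both from the HSD retinas, 0.22 and 0.58 for MYLIP, both from the HFD retinas, and −0.97 and −0.27 for CD36, both from the HFSD retinas. Without HSD replicate 2, 2 of the 7 had an unadjusted p under 0.05 for the interaction. They were LPL at 0.74 and CYP27A1, which moved from −0.36 to −0.80, with unadjusted p values of 0.033 and 0.013 in limma, and neither was called. Without HFSD replicate 1 the same held for CD36, with an unadjusted p of 0.036 in limma. By fat plus cholesterol, 0 of 7 genes were called and 0 had an unadjusted p under 0.05, beside 0.00819% and 3.20% of all genes tested. The 7 log2 differences by fat ran from −0.20 for LPL to 0.11 for PLIN2. Without HSD replicate 2 LPL was at −0.08, and the lowest was CYP27A1 at −0.38 in place of −0.15, with an unadjusted p of 0.017 (limma), and it was not called.

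**Figure D4:**
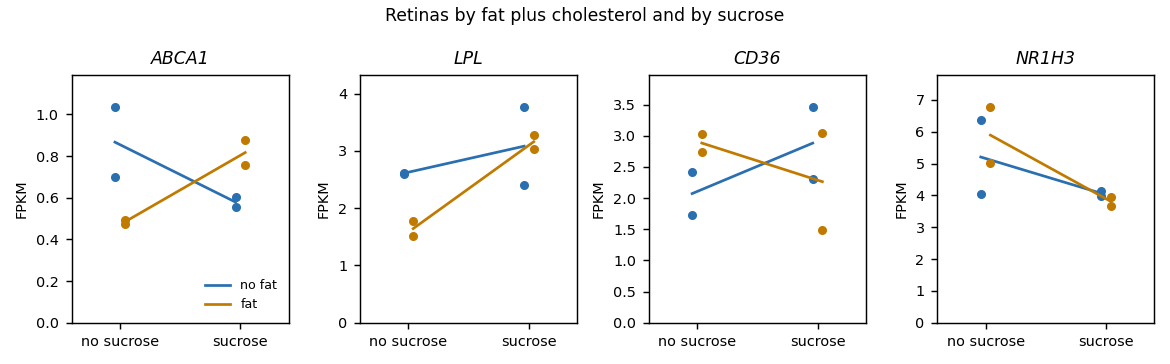
FPKM of ABCA1, LPL, CD36 and NR1H3 by sucrose (x axis) and by fat plus cholesterol (colour), with 1 point per retina, 2 per diet, and lines between the group means, on axes that start at 0. The lines of ABCA1 cross, from 0.867 to 0.579 without fat and from 0.484 to 0.817 with fat, while those of NR1H3 both fall.

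CD36, a receptor for oxidised lipoproteins and long-chain fatty acids, varied as much within diets as between them. Its level was 1.72 and 2.42 FPKM under ND, 2.73 and 3.03 under HFD, 2.30 and 3.46 under HSD, and 3.04 and 1.49 under HFSD. Both HFD retinas lay above both ND retinas, whereas the first HFSD retina was the second highest of all 8 and the other the lowest. The HFSD retinas differed 2.05-fold, against a median of 1.11-fold over all genes tested in that pair, and counting error (2.62 to 3.50 and 1.14 to 1.90 FPKM) does not cover the gap. The log2 fold change was 0.35 in HFD (−0.30 to 0.99), 0.33 in HSD (−0.32 to 0.98) and 0.05 in HFSD (−0.59 to 0.70), with adjusted p values of 0.998, 0.825 and 0.974 in limma. As for LPL, the highest value was in HSD replicate 2, whose muscle and fat cell transcripts were not tested for their part in it. Without that library the log2 fold change in HSD was 0.11. Without ND replicate 1 the value in HFD was 0.18, and without ND replicate 2 it was 0.51. In HFSD it was −0.30 without the first and 0.40 without the second HFSD retina.

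SCARB1 was the steadiest gene of the group. Its level was 75.3 and 92.9 FPKM under ND, 82.3 and 87.0 under HFD, 73.0 and 85.1 under HSD, and 78.6 and 72.2 under HFSD. All diets overlapped with ND, and the highest library exceeded the lowest 1.29-fold. Its log2 fold changes were 0.02 in HFD (−0.31 to 0.34), −0.08 in HSD (−0.41 to 0.24) and −0.15 in HFSD (−0.47 to 0.18). With 2125 to 3341 fragments a library its counts were the deepest of the group. Without ND replicate 1 the 3 values were −0.13, −0.24 and −0.30, and without ND replicate 2 they were 0.17, 0.07 and 0.0015.

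CYP27A1, whose product is an LXR ligand, stood at 14.7 and 17.9 FPKM under ND, 15.4 and 17.8 under HFD, 21.7 and 11.3 under HSD, and 12.0 and 12.6 under HFSD. Both HFSD retinas lay below both ND retinas. The 2 HSD retinas held the highest and the lowest value of the series and differed 1.92-fold, against a median of 1.12-fold over all genes tested in that pair. The log2 fold change was −0.38 in HFSD (−0.998 to 0.24; adjusted p = 0.758, limma), −0.04 in HSD (−0.66 to 0.58) and 0.02 in HFD (−0.60 to 0.64). The lowest value was in HSD replicate 2, and without that library the log2 fold change in HSD turned to 0.40, with an unadjusted p of 0.068 and an adjusted p of 1 (limma), while without HSD replicate 1 it was −0.48, with an unadjusted p of 0.035 (limma). By sucrose the log2 difference of CYP27A1 was −0.22 (−0.66 to 0.22; adjusted p = 0.549, limma). It was −0.0026 without HSD replicate 2 and −0.44 without HSD replicate 1, where the unadjusted p was 0.0082 (limma) and the gene was not called. In HFSD the log2 fold change of CYP27A1 was −0.51 without ND replicate 1 and −0.25 without ND replicate 2. Without HSD replicate 2 the remaining tested genes kept their direction in HSD. They stood at −0.19 for SCARB1, −0.28 for PLIN2, −0.25 for NR1H3 and −0.26 for MYLIP, and ABCA1 kept its direction too, at −0.26.

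PLIN2, the coat protein that accumulates with lipid droplets in most cell types, stood at 10.99 and 9.48 FPKM under ND, 12.5 and 10.0 under HFD, 8.21 and 9.50 under HSD, and 10.3 and 8.94 under HFSD. The HFSD retinas overlapped with ND, and the highest value was in an HFD retina. The log2 fold change was −0.08 in HFSD (−0.45 to 0.28), −0.19 in HSD (−0.56 to 0.18) and 0.12 in HFD (−0.24 to 0.49), with adjusted p values of 0.914, 0.823 and 0.998 in limma. Leaving out 1 library gave −0.18 to 0.01 in HFSD, −0.29 to −0.09 in HSD and −0.02 to 0.27 in HFD, with the turn in HFSD without ND replicate 1 or HFSD replicate 2 and that in HFD without HFD replicate 1. By sucrose the log2 difference was −0.20 (−0.46 to 0.06; adjusted p = 0.376, limma). Markers of the pigment epithelium, where the study saw its droplets, were lower in summed level in the same diets, and their part in the value of PLIN2 was not tested.

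Other genes of the same pathways were read from 4 lists of LXR receptors and targets, lipoprotein receptors, lipases and apolipoproteins, sterol oxidation and transport, and lipid droplet coat and lipolysis. The lists named 98 genes beside the 10 symbols, of which 80 were found and 59 tested. None of the 59 was called against ND with limma and Benjamini-Hochberg adjustment. At an unadjusted p under 0.05, 1 was higher and 4 lower in HFD, 1 higher and 6 lower in HSD, and 1 higher and 6 lower in HFSD. These are 8.47%, 11.9% and 11.9% of the 59, beside 4.31%, 7.20% and 8.07% of all genes tested. More of them lay below ND than above, 34 of 59 under HFD, 36 under HSD and 38 under HFSD, which is 57.6%, 61.0% and 64.4% beside 48.8%, 50.5% and 50.8% of all genes. Their median log2 fold changes, −0.03, −0.04 and −0.04, were close to those of all genes.

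The 12 tested genes of the LXR list had medians of −0.03, −0.02 and 0.04, in the order HFD, HSD, HFSD. The 16 lipoprotein genes lay lowest, with medians of −0.18, −0.15 and −0.16 and with 11, 11 and 12 of 16 lower. The 16 sterol genes had medians of 0.03, 0.00 and 0.01. The 24 lipid droplet genes had medians of −0.06, −0.06 and −0.04, with 16, 16 and 17 of 24 lower. These lists include the 7 tested members.

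**Figure D5:**
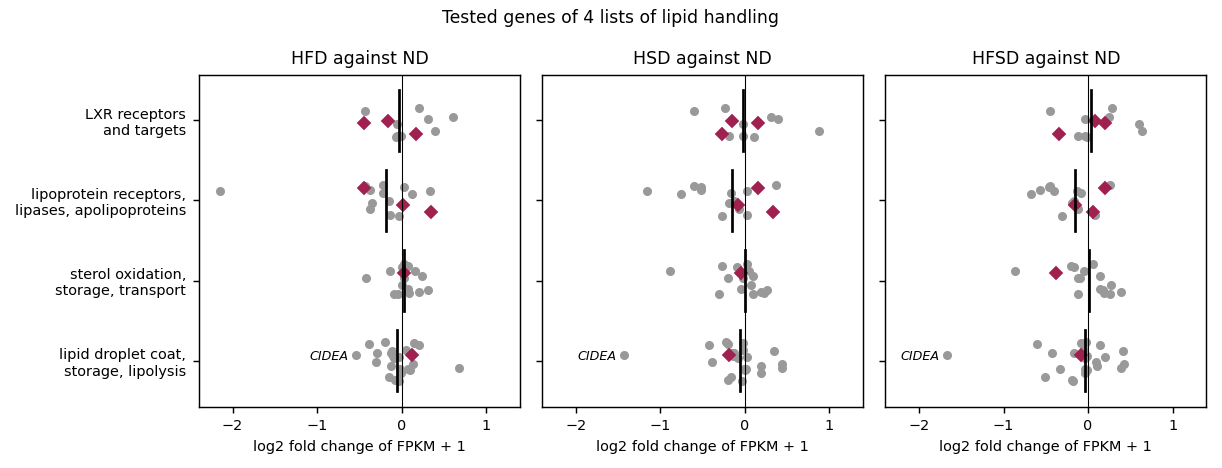
Log2 fold change of FPKM + 1 against ND for each tested gene of 4 lists (rows) in HFD, HSD and HFSD (panels); grey circles are other list genes, red diamonds the tested members, black bars list medians, and vertical jitter carries no meaning. The medians lie between −0.18 and 0.04, and CIDEA is the lowest lipid droplet gene in each panel, at −0.54, −1.44 and −1.67.

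CIDEA, a lipid droplet protein that promotes the fusion of droplets in fat cells, lay lowest among the lipid droplet genes in every diet. Its level was 5.72 and 4.58 FPKM under ND, 3.22 and 3.19 under HFD, 1.21 and 1.32 under HSD, and 1.32 and 0.591 under HFSD. The 3 enriched diets each lay below both ND retinas. Of all genes tested, 25.9%, 39.0% and 42.3% separated from ND, above or below, in HFD, HSD and HFSD. For CIDEA all 4 retinas with sucrose also lay below all 4 without, and the share of all genes separated in that way was not counted. The log2 fold change was −0.54 in HFD (SE 0.221), −1.44 in HSD (SE 0.221) and −1.67 in HFSD (SE 0.221), with adjusted p values of 0.998, 0.151 and 0.103 in limma. By sucrose CIDEA fell by 1.28 on the log2 scale (SE 0.157), with an adjusted p of 0.0311 (limma, Benjamini-Hochberg), the 1 gene of the 59 called in that comparison. The direction held in each alternative tried, but the call was lost when either HFD retina, either HSD retina or HFSD replicate 2 was left out, with adjusted p values of 0.0810 to 0.104, and without the filter on low values, at 0.0815 (limma, Benjamini-Hochberg). Among the 59 genes, 3 were higher and 9 lower with sucrose at an unadjusted p under 0.05 (limma). This share of 20.3% is close to the 18.3% of all genes, which divided into 1119 higher and 1118 lower.

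NPC2, which hands cholesterol to the lysosomal membrane, stood at 59.0 and 96.2 FPKM under ND, 97.1 and 72.7 under HFD, 38.4 and 42.2 under HSD, and 40.1 and 42.1 under HFSD. All 4 retinas with sucrose lay below all 4 without. Its log2 fold change was −0.89 in HSD and −0.86 in HFSD, with adjusted p values of 0.438 and 0.430, and −0.95 by sucrose, with an adjusted p of 0.0775 in limma. Over the alternatives it ran from −1.24 to −0.54 in HSD and from −1.21 to −0.51 in HFSD, with the smallest sizes without ND replicate 2. LCAT, the plasma enzyme that esterifies cholesterol on HDL, was at 5.40 and 3.11 FPKM under ND, 3.39 and 6.07 under HFD, 2.12 and 1.94 under HSD, and 1.86 and 2.59 under HFSD. It too was lower in all 4 retinas with sucrose, with a log2 fold change of −0.68 in HFSD (adjusted p = 0.625, limma), which ran from −0.997 to −0.36 over the alternatives. CIDEA, NPC2 and LCAT were lower in the same 4 retinas as the pigment epithelium, Müller cell and microglia sums given above. Within those lists only 2 of 11, 3 of 10 and 6 of 12 markers were separated in this way. The share of all genes separated so was not counted, and the part of these sums in the 3 genes was not tested.

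APOD, a lipocalin that carries small lipids, was at 53.4 and 39.9 FPKM in ND, 18.4 and 21.9 in HSD, 31.8 and 37.9 in HFSD, but at 1.69 and 41.0 in HFD. A single HFD retina thus stood far below the other 7, and the log2 fold change in HSD was −1.16 (adjusted p = 0.836, limma). The spread in that fit includes the HFD pair. With only the ND and HSD libraries fitted, the adjusted p was 0.347 (limma). Without HSD replicate 2 the value in HSD was −1.28 for APOD, −1.47 for CIDEA and −0.96 for NPC2. G0S2, an inhibitor of the triglyceride lipase PNPLA2, lay at 48.9 and 51.1 FPKM in HFD against 24.3 and 39.2 in ND, a log2 fold change of 0.68 (adjusted p = 0.998, limma). It was 0.34 without ND replicate 1 and 1.01 without ND replicate 2.

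For each tested gene the genes with the most similar level over the 8 libraries were sought among 9870 others. This is a description, since the libraries of a diet share that diet and every gene shares the depth of its library. INCENP followed NR1H3 most closely (Pearson's r = 0.993), ahead of TNFSF12-TNFSF13 (0.975), and 74 genes had an r over 0.9 with NR1H3. For CYP27A1, with 5 such genes, the closest was ANKH (0.974). ANKH shared the high first and low second HSD retina, at 83.4 and 59.0 FPKM, and ARMC2 came next (0.925). For CD36, with 6 such genes, they were PACS1 (0.959) and ANKRD23 (0.949), an ankyrin repeat protein known from muscle that was at 24.1 FPKM in HSD replicate 2 and at 8.76 to 19.1 FPKM elsewhere.

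LPL was followed most closely by CROT (0.958), a peroxisomal carnitine acyltransferase, and by RSPH1 (0.953), with 37 genes over 0.9. SCARB1 was followed by PCBP4 (0.972) and C3orf18 (0.962), with 36 genes over 0.9, and PLIN2 by ZNF410 (0.955) and the transcription factor USF1 (0.953), with 15. For MYLIP the closest were NXT2 (0.921) and XRCC2 (0.918), and 7 genes exceeded 0.9. Members of the group were left out of the search.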

How the data were processed

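The authors checked reads with FastQC, aligned these with TopHat2 to a rabbit genome, allowing 2 mismatches, discarded reads with several locations and computed FPKM per gene with their own script. The deposited values are FPKM for each of 8 libraries, although the table is named for counts. Genome build, annotation and tool versions are not given in the sources used here, so no coordinates or sequences are printed. All value columns were assigned to a sample (0 left over).

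Whole fragments were recovered from the steps of the FPKM values. All rows above 0 (20061, or 100%) gave whole numbers, within a relative error of 4e-09 or an absolute one of 1e-06. The recovered depth is not the sum of fragments (15223693 to 22293660), and its origin was not determined.

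limma (version 3.58.1, R 4.3.3) was fitted with a mean-variance trend to log2(FPKM + 1) of all 8 libraries, with 4 diet groups and 4 residual degrees of freedom. Protein-coding genes that reached 1 FPKM in 2 or more libraries entered, and p-values were adjusted over these 12204 by the Benjamini-Hochberg method. Tests were two-sided. The step was tested on simulated data for HSD against ND. Of 100 genes changed by 1 on the log2 scale 31 were called, and of 100 changed by 2, 95 were called, beside 6 unchanged genes. A real change of 1 could thus often go uncalled. The simulated spread was a set value, so these shares may not hold for the real genes. Fold changes are on the log2(FPKM + 1) scale, which understates the change of low genes. ABCA1 comes from the same fit without the filter (16404 genes). Poisson intervals (95%) cover counting error only. Alternatives were a pseudocount of 0.1, no filter, a filter of 10 fragments in 2 libraries (chosen after seeing the data), median-ratio rescaling, voom on fragments, fits of the libraries compared alone, a replicate block and leaving out each library.

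The members and lists were chosen with earlier results of these data known. Beside the members, in each diet the 3 list genes with the largest change among those whose 2 retinas lay beyond both ND retinas were named, with every list gene called, and for each tested member the 2 genes with the highest correlation. A gene that this rule names is not reported here. The marker lists were pigment epithelium, Müller cells, microglia, photoreceptors, skeletal muscle and adipocytes, and also endothelium, astrocytes, blood and fibroblasts.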

Additional observations from a re-analysis of the deposited data

Results flagged for a closer look

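The effect of fat plus cholesterol on ABCA1 pointed in opposite directions without and with sucrose. Both HFD retinas (0.473 and 0.494 FPKM) lay below both ND retinas (1.04 and 0.698), while both HFSD retinas (0.877 and 0.757) lay above both HSD retinas (0.555 and 0.604). The effect of sucrose did the same without and with fat, from the same 8 values. The difference was tested as the interaction in the limma fit without the filter on low values. It was 0.53 on the log2 scale, for the effect of fat as for that of sucrose, with an unadjusted p of 0.013 and an adjusted p (Benjamini-Hochberg over 16404 genes) of 1, so it did not pass the correction. Over the alternatives the interaction ran from 0.40 to 1.33 and its adjusted p from 0.449 to 1. No other member showed opposite directions in all retinas. The share of all genes that do so was not counted, so the pattern cannot be called particular to ABCA1. Of all genes tested, 3.74% had an unadjusted p under 0.05 for the interaction in limma.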

How the results depend on the processing

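No member was called under any alternative, in any of the 6 comparisons. Without HFD replicate 2, 1 other list gene, APOD, was called in HFD and in the interaction, from a lone HFD retina of 1.69 FPKM that is assumed to vary like the other groups, and leaving out each library gave 0 to 1 such genes in both. By sucrose the count of 1 (CIDEA) became 3 (CIDEA, CLU and NPC2) with 2 groups of 4 libraries, 0 with no filter, and 0 to 2 when each library was left out, with NPC2 added without ND replicate 1. The calls over all genes moved with these counts, from 42 by sucrose in the main fit to 141 with 2 groups of 4 libraries and 8 with no filter. The count of members past the fold limits in HFD became 2 (LPL and ABCA1) with a pseudocount of 0.1, where 7.95% of protein-coding genes passed. Among the directions given with each gene, SCARB1 in HFSD reversed to 0.0015 without ND replicate 2, and leaving out each library gave −0.30 to 0.0015. Besides those, CYP27A1 in HFD turned to −0.11 and ABCA1 in HFSD to 0.10, both without ND replicate 1. In all, 14 of the 24 pairs of gene and diet turned in at least 1 such fit. Members with separate retinas numbered 3 to 6 in HFD, 2 to 5 in HSD and 4 to 6 in HFSD when a library was left out, beside 59.5% to 67.3%, 64.7% to 75.4% and 64.2% to 79.4% of all genes tested, since fewer retinas separate more easily. The cause of the other shifts was not tested. The log2 difference by sucrose ran from 0.28 to 0.63 for LPL (adjusted p 0.153 to 0.437) and from −0.52 to −0.25 for NR1H3 (adjusted p 0.115 to 0.465), in limma over the alternatives. Of the other alternative values, 202 counts stayed within 1.5 times and 367 single-gene values kept their direction and side of the threshold, while 6 for CIDEA by sucrose lost the call.

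With the replicate block, 0 members and 1 other list gene were called by sucrose and LPL stood at 0.41 (adjusted p 0.253, limma). Same-numbered retinas did not deviate together (correlations of −0.165 to 0.0813), so the numbers were not taken as pairs. Median-ratio rescaling changed no call among the members and list genes. The 5 members of lowest level rest on 63 to 638 fragments a library, which limits the size of change that can be seen.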

Other observations

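Markers of other cell types were summed as well. The 11 endothelium markers found of 12 summed to 382 to 467 FPKM in the retinas without sucrose and to 298 to 360 FPKM with it. The gap came from SLC2A1, at 246 to 303 FPKM without and 169 to 211 FPKM with sucrose, and the other 10 overlapped. Astrocyte markers, 5 of 5 found, summed to 385 to 1128 FPKM without sucrose and 240 to 479 FPKM with it, and these ranges overlapped. Blood markers, 5 of 11 found, varied from 0.701 to 82.6 FPKM with no order by diet. The 7 fibroblast markers found of 8 summed to 62.7 FPKM in HSD replicate 2 and to 18.2 to 40.9 FPKM elsewhere.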
